A study of Homo sapiens with 16 samples.

Results

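The response to 5-aza-dC was compared between HCT116 and RKO cells, gene by gene, to find where the lines differed. HCT116 and RKO are established human colon cancer cell lines. 5-aza-dC is a cytidine analogue that is built into DNA during replication and traps DNA methyltransferases, so that cytosine methylation at CpG sites is lost as the cells divide. Promoters that are rich in CpG sites and methylated are usually silent, and genes under them can be switched on by the drug in cells that hold the factors they need. TSA inhibits histone deacetylases and PJ-34 inhibits poly(ADP-ribose) polymerases.

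The comparison rested on 14 of the 16 arrays of the series, each an Affymetrix Human Genome U133 Plus 2.0 array of 1 line and treatment. HCT116 with 5-aza-dC was 4 arrays (5-aza-dC alone, with PJ-34, with TSA and with both) and HCT116 without 5-aza-dC was 4 arrays (control, PJ-34, TSA and PJ-34/TSA). RKO with 5-aza-dC was 3 arrays (5-aza-dC alone, with TSA and with PJ-34/TSA) and RKO without 5-aza-dC was 3 arrays (control, TSA and PJ-34/TSA). Treatment lasted 3 days. The doses were 0.5 µM for 5-aza-dC, 150 nM for TSA, and for PJ-34 3 µM in HCT116 and 2 or 3 µM in RKO, for which the sources differ. A pair of RKO arrays, labelled PJ-34 and, with the demethylating drug added, PJ-34/5-aza-dC, was left out because the signals went against the labels. Of 237 probe sets that 5-aza-dC raised in the other RKO arrays, 220 read higher under the label PJ-34 than under the label PJ-34/5-aza-dC. Against the RKO control, their median log2 difference was 0.10 under the label PJ-34/5-aza-dC and 1.38 under the label PJ-34, beside 1.36 with 5-aza-dC alone. With all 16 arrays under their labels, the count of line differences given below was 35 in place of 97.

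The values are signal intensities scaled to 1 target per array. The trimmed mean lay between 1000.14 and 1000.16 on each array, the median between 152 and 210, and 21.9% to 27.3% of probe sets read under 50. Every array carries the replicate number 1, so there are no repeats of a treatment. The p-values measure the spread left between the arrays of a line after its 5-aza-dC and TSA effects. That spread holds effects of PJ-34 and of drugs acting together, besides the noise of the arrays. The colon epithelium markers set the lines apart. At least 250 was read without 5-aza-dC for 6 of 9 in HCT116 and for 3 of 9 in RKO (EPCAM, KRT8 and KRT18), while KRT19 stood at the floor of 50 in RKO and CDH17 read under 100 in both lines.

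The 5-aza-dC effect of a line is the mean log2 difference between its arrays with and without the drug, and the line difference is the effect in HCT116 minus the effect in RKO. Signals under 50 were set to 50 before the log, so an effect that starts from the floor is a lower bound on its size. Of 44013 probe sets tested, 97 differed between the lines at an adjusted p under 0.05 (limma), where 3855 had an unadjusted p under 0.05. The effect was higher in HCT116 at 36 (0.0818% of those tested, 26 genes with a single symbol) and higher in RKO at 61 (0.139%, 52 genes). In all 97 the difference had the same sign in each of the 3 treatments that both lines share. The calls were made on these same arrays, which favours such agreement, so it is no separate support. Sizes ran between 0.74 and 6.68 on the log2 scale in the first group (median 1.79) and between 0.74 and 5.26 in the second (median difference −1.65). Over all probe sets the median difference was −0.08 and the median standard error 0.55. The unadjusted 95% interval of a typical probe set reached 1.15 to either side, so smaller line differences were mostly not detectable. The adjusted test asks for more, and larger differences could be missed as well. The collagen gene COL6A3, for example, had 3.10 with an adjusted p of 0.0900. The count depends on single arrays, with 41 calls without the RKO array of 5-aza-dC and 102 without the HCT116 array of TSA, and 28 probe sets passed in all 14 fits that left out 1 array.

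**Figure D1:**
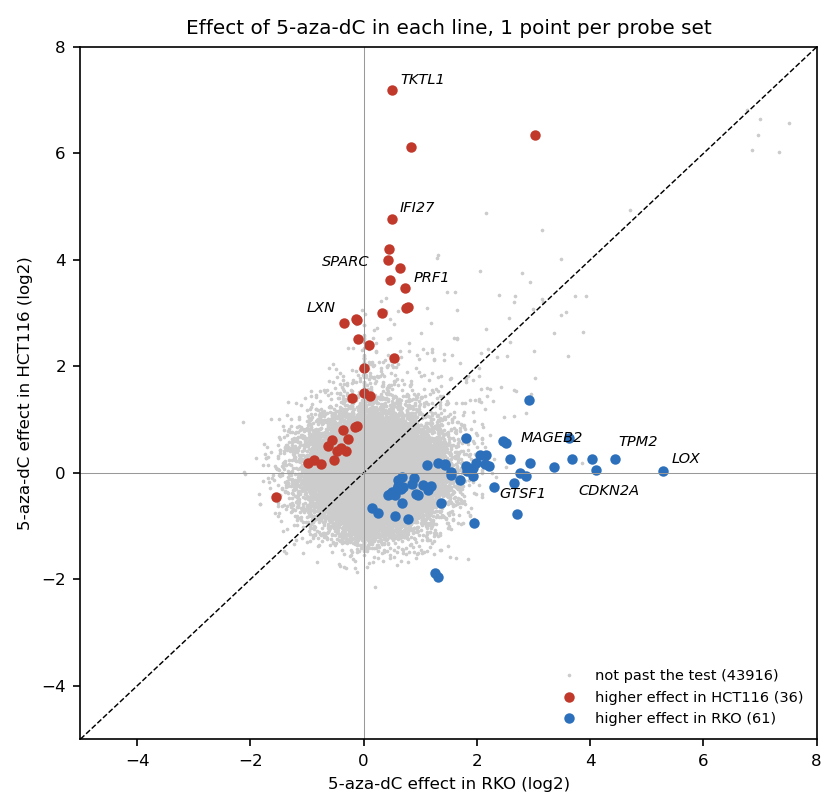
Effect of 5-aza-dC in HCT116 (y axis, log2) against that in RKO (x axis, log2), 1 point per probe set and a dashed line of equal effects. The 36 probe sets with a higher effect in HCT116 are red, the 61 with a higher effect in RKO are blue, and among the rises the median effect of the other line was 0.09 for the first and −0.04 for the second.

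The called probe sets were divided by the line that responded, which is the line with the larger effect in size, and by the level of the other line without 5-aza-dC. The other line was taken as active at a geometric mean signal of 250 or more and as low under 100. The same arrays enter the contrast, so the division is a description and carries no test. Most of the differences were rises: 29 probe sets rose more in HCT116 and 55 rose more in RKO. Of the 29 raised in HCT116, 18 were active in RKO, 1 was intermediate and 10 were low. Of the 55 raised in RKO, 49 were active in HCT116, 1 was intermediate and 5 were low. Among all probe sets tested, 49.7% were active in RKO and 51.7% in HCT116. Among all that 5-aza-dC raised in HCT116, called different or not, 59.3% were active in RKO. Among all that it raised in RKO, 80.2% were active in HCT116. Much of the share of active genes among the calls was thus found in the rises of each line at large. A further 7 probe sets with a higher effect in HCT116 had their larger effect as a fall in RKO, and 6 with a higher effect in RKO had it as a fall in HCT116.

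Among the calls, the classes differed in how far the responding line moved. Each class holds only probe sets past the test, and a larger standard error asks for a larger difference. In HCT116, SUSD2 (low in RKO) had 2.33 with a standard error of 0.45, and SOWAHC (active in RKO) passed at 0.74 with 0.13. The sizes below thus depend in part on this selection. In the 10 probe sets raised in HCT116 and low in RKO, the median signal was 3851 with and 123 without 5-aza-dC in HCT116, against 92.8 with and 59.0 without the drug in RKO. In 6 of these 10, RKO still read under 100 with 5-aza-dC, and 1 had passed the test as a rise in RKO as well. In the 18 raised in HCT116 and active in RKO, the medians were 2412 with and 953 without the drug in HCT116, against 3245 and 3389 in RKO, and RKO was the higher line throughout these medians. In the 49 raised in RKO and active in HCT116, HCT116 had medians of 6068 with and 6699 without 5-aza-dC, against 779 with and 138 without it in RKO. RKO stayed far below HCT116 in most of them. Relative to HCT116 without 5-aza-dC, the median log2 gap of RKO was −2.72 with the drug and −4.39 without it, and RKO reached the HCT116 level at 6 of the 49. Over the 18, the median gap of HCT116 to RKO without 5-aza-dC was −0.70 with the drug and −2.01 without it, and 5 of the 18 reached the RKO level.

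**Figure D2:**
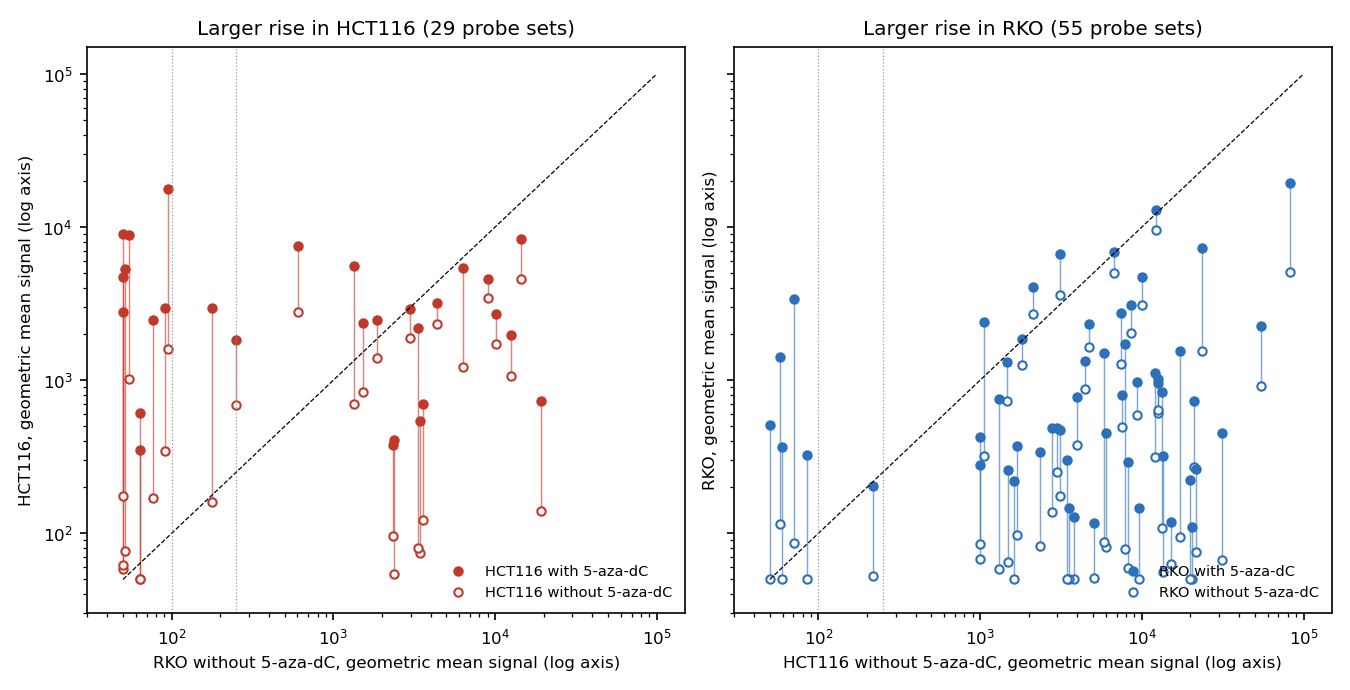
Geometric mean signal of the responding line with (filled) and without (open) 5-aza-dC against the level of the other line without the drug, log axes, for rises past the test of the line difference. Dotted lines mark 100 and 250 and the dashed line equal levels, and 49 of the 55 probe sets raised in RKO lie right of 250 in HCT116.

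The promoter of a gene of each class is shown because CpG methylation there is what the drug removes. The windows were read from RefSeq on GRCh38.p14 as the 250 bases before and 50 bases after the annotated start. TKTL1 responded in HCT116 and was low in RKO, IFI27 responded in HCT116 and was active in RKO, LOX responded in RKO and was low in HCT116, and TPM2 responded in RKO and was active in HCT116. CpG sites are in capitals.
TKTL1 (chrX:154295545-154295844, + strand): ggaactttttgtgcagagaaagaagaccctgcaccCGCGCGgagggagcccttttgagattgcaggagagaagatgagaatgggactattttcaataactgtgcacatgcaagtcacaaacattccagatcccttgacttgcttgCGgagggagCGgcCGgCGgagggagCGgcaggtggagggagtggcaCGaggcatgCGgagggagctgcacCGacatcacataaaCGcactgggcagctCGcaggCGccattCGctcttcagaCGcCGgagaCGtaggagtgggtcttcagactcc
IFI27 (chr14:94110486-94110785, + strand): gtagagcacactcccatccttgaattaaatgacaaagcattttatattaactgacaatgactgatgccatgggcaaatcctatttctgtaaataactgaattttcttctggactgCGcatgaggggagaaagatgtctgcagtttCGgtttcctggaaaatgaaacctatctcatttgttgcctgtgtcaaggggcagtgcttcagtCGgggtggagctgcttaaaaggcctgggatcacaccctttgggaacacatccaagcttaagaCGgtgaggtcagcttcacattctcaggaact
LOX (chr5:122078210-122078509, − strand): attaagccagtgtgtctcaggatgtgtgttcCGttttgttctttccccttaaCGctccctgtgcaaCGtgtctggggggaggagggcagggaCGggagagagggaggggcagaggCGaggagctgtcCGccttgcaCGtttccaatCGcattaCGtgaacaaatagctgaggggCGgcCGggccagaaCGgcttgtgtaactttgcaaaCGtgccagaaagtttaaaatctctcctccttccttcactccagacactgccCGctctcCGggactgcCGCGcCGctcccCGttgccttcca
TPM2 (chr9:35690007-35690306, − strand): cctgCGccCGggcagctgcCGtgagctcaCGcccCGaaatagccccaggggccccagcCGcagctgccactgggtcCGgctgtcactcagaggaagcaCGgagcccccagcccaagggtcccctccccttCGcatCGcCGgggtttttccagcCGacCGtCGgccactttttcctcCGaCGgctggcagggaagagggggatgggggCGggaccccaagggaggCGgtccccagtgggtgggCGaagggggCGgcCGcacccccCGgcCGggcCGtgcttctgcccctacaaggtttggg
The windows held 18 CpG sites in TKTL1, 4 in IFI27, 19 in LOX and 24 in TPM2. Over all 35116 promoters of the same length the median was 14, and 96.0% held at least 1 CpG, that is the letters CG, which read the same on both strands. Of the genes raised more in RKO, 38 of 46 had a promoter in the table, with a median of 19 CpG sites. Of those raised more in HCT116, 17 of 20 had one, with a median of 12. The genes tested had a median of 24. Neither median of the responders was above that of the genes tested, and the methylation of these sites was not measured on the arrays.

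TKTL1, a transketolase-like gene related to the pentose phosphate pathway, had the largest difference. In HCT116 its signal was 28199, 27676, 5595 and 1479 with 5-aza-dC (alone, with PJ-34, with TSA and with both), against 41.3, 116, 46.6 and 37.1 without it (control, PJ-34, TSA and PJ-34/TSA). In RKO it was 31.6, 20.1 and 143 with the drug (alone, with TSA and with PJ-34/TSA), against 8.49, 31.6 and 5.02 without it. The HCT116 groups lay far apart, and a single RKO array stood above 50. The line difference was 6.68 (SE 0.80, 95% interval 4.99 to 8.36, adjusted p = 0.000437), and the second TKTL1 probe set gave 5.28 (adjusted p = 0.0494). The call of the first ended without a filter on low signals and without a variance trend (adjusted p up to 0.0577). In the shared treatments the difference was 9.14 with no other drug, 6.81 with TSA and 3.37 with PJ-34/TSA. Of 11 pentose phosphate pathway genes tested, TKTL1 was called and the list had a median difference of 0.12.

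SPARC, a matrix protein gene that is often methylated in colorectal cancer, rose in HCT116 in the same way. It read 3145, 5035, 1909 and 2043 with 5-aza-dC in HCT116 (alone, with PJ-34, with TSA and with both), against 231, 257, 121 and 131 without it. In RKO it read 124, 15.5 and 18.5 with the drug (alone, with TSA and with PJ-34/TSA), against 27.9, 4.25 and 12.5 without it. RKO thus read near the floor on all but 1 array, and the difference was 3.57 (SE 0.49, adjusted p = 0.00168). Its second probe set had 2.89 with an adjusted p of 0.0764. PRF1, the gene of perforin, the pore-forming protein of cytotoxic lymphocytes, read 22301, 27259.8, 14382 and 11209 with 5-aza-dC in HCT116, against 1516, 1559, 1793 and 1530.4 without it. RKO had 38.5, 232 and 339.6 with the drug, against 50.2, 108 and 161 without it, so its groups overlapped. The PRF1 difference was 2.74 (SE 0.36, adjusted p = 0.000992), and its other probe set had 1.64 (adjusted p = 0.0784).

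Other genes raised in HCT116 and low in RKO were GJA1, which encodes connexin 43, the keratin gene KRT20, SUSD2, the cancer-testis antigen gene MAGEA8 and the secreted Wnt antagonist gene DKK4. GJA1 had a geometric mean of 2463 with and 170.3 without 5-aza-dC in HCT116, against 119 and 76.3 in RKO, a difference of 3.22 (SE 0.57, adjusted p = 0.0199). KRT20 had 2950.3 with and 346 without the drug in HCT116, against 154 and 91.5 in RKO, with 2.34 (SE 0.42, adjusted p = 0.0213). SUSD2 was already at 1025 in HCT116 without 5-aza-dC and at 8845 with it, while RKO had 92.8 with and 54.2 without it (difference 2.33, adjusted p = 0.031, and 2.24 with 0.157 at its other probe set). These calls were less stable. GJA1 ended without the RKO array of TSA, PJ-34/TSA or PJ-34/5-aza-dC/TSA, or the HCT116 array of control or 5-aza-dC/TSA (adjusted p up to 0.0836). KRT20 ended in 8 of the 14 fits without 1 array (up to 0.120), SUSD2 in 10 (up to 0.189), and MAGEA8 and DKK4 in 13 each (up to 0.182 and 0.205). The difference kept its sign in all of these fits.

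In the second class HCT116 rose in genes that RKO already transcribed. IFI27, an interferon-stimulated gene, read 3015, 4431, 1392 and 1263 with 5-aza-dC in HCT116 (alone, with PJ-34, with TSA and with both), against 45.5, 145, 115 and 34 without it. RKO had 4402, 4512 and 5148 with the drug (alone, with TSA and with PJ-34/TSA), against 3513, 3169.6 and 3287 without it. A single array of HCT116 with 5-aza-dC lay within the range of RKO, and the difference was 4.28 (SE 0.47, 95% interval 3.29 to 5.27, adjusted p = 0.000183). The IFI27 call ended without a filter and without a variance trend (up to 0.0539), as did those of PRF1 (up to 0.0815) and H1-2 (up to 0.109). LXN, which encodes the carboxypeptidase inhibitor latexin, read 562, 339, 459 and 306 with 5-aza-dC in HCT116, against 27.7, 36.6, 5.01 and 69.9 without it. RKO had 2122, 2276 and 2079 with the drug, against 2812, 2365 and 1976 without it. The LXN difference was 3.03 (SE 0.37, adjusted p = 0.000493), and the RKO groups overlapped. SPARC and LXN passed in every alternative run. H1-2, a linker histone gene, was well expressed in both lines, with geometric means of 5423 with and 1221 without 5-aza-dC in HCT116, against 9151 and 6299 in RKO. Its difference was 1.61 (SE 0.22, adjusted p = 0.00168), and its effect in RKO was 0.54 (adjusted p = 0.231).

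BST2, which encodes the antiviral membrane protein tetherin, showed the widest gap between the lines in this class. It had geometric means of 736 with and 139 without 5-aza-dC in HCT116, against 20534 and 19246 in RKO, and a difference of 2.31 (SE 0.40, adjusted p = 0.0174). TXNIP, which encodes an inhibitor of thioredoxin, had 539 with and 73.9 without the drug in HCT116, against 3173 and 3457 in RKO. Its difference was 2.99 (SE 0.51, adjusted p = 0.0148), with 2.62 in another probe set (adjusted p = 0.0352) and 2.37 in a further one (adjusted p = 0.444). PTPN7, a tyrosine phosphatase gene of blood cells, had 379 with and 96.2 without 5-aza-dC in HCT116, against 2349 and 2324 in RKO (difference 1.96, adjusted p = 0.0213), while its other probe set had 0.07 (adjusted p = 0.981). DHRSX, a dehydrogenase gene, had 5612 with and 698 without it, against 1682 and 1347 in RKO (difference 2.69, adjusted p = 0.0445), while its other probe set had 1.05 (adjusted p = 0.505). Without 1 array, the BST2 call ended in 6 fits (adjusted p up to 0.108), PTPN7 in 8 (up to 0.111) and DHRSX in 10 (up to 0.196). TXNIP ended without the RKO array of control, 5-aza-dC, TSA or PJ-34/5-aza-dC/TSA (up to 0.115).

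**Figure D3:**
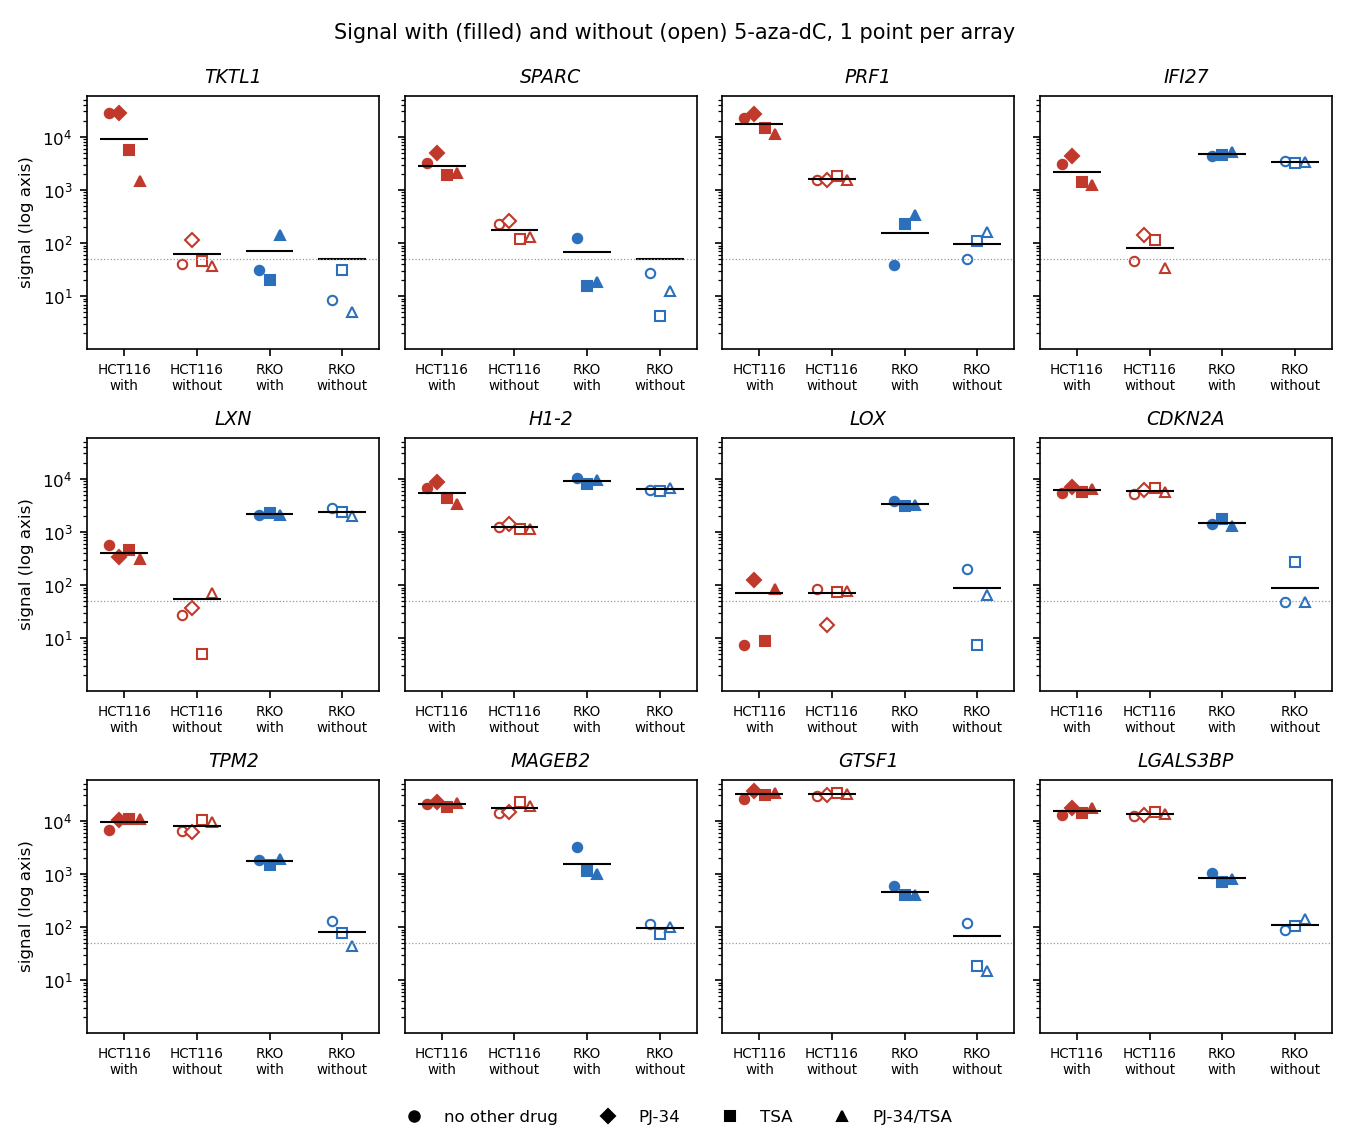
Signal of 12 genes on the 14 arrays (y axis, log), grouped along the x axis by line with (filled) and without (open) 5-aza-dC, the symbol giving the other drugs. Black lines are geometric means after the floor of 50, which the dotted line marks, and no array of HCT116 with 5-aza-dC reads below any without it for TKTL1, SPARC, PRF1, IFI27, LXN and H1-2.

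LOX was the clearest gene raised in RKO and low in HCT116. It encodes lysyl oxidase, the enzyme that crosslinks collagen and elastin. It read 7.44, 127, 8.85 and 83.5 with 5-aza-dC in HCT116 (alone, with PJ-34, with TSA and with both), against 82.7, 18.1, 75.6 and 78.1 without it. RKO had 3837, 3120.1 and 3254 with the drug (alone, with TSA and with PJ-34/TSA), against 197, 7.62 and 66.2 without it. The HCT116 groups overlapped around the floor while those of RKO lay apart, with a difference of −5.26 (SE 0.63, 95% interval −6.58 to −3.94, adjusted p = 0.000437). A second LOX probe set gave −3.25 (adjusted p = 0.0199) and a further one −2.81 (adjusted p = 0.125). LY96, which encodes the partner of the lipopolysaccharide receptor TLR4, had geometric means of 91.8 with and 58.0 without 5-aza-dC in HCT116, against 1418 and 115 in RKO (difference −2.96, SE 0.54, adjusted p = 0.0228). LRRN4 had 50 and 85.0 in HCT116, against 325 and 50 in RKO, and C7orf57 had 56.8 and 59.5 in HCT116, against 366 and 50 in RKO. Their differences were −3.47 (adjusted p = 0.0373) and −2.94 (adjusted p = 0.0362), and the other LRRN4 probe set had −1.53 (adjusted p = 0.487). Without 1 array, LY96 ended in 8 fits (adjusted p up to 0.121), LRRN4 in 12 (up to 0.202) and C7orf57 in 10 of the 11 that tested it (up to 0.141).

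The largest class was made of genes that RKO raised and HCT116 already transcribed. TPM2, which encodes beta-tropomyosin, read 6595, 10153, 10938 and 10762 with 5-aza-dC in HCT116 (alone, with PJ-34, with TSA and with both), against 6304, 6157, 10215 and 9537 without it. RKO had 1792, 1469.8 and 1923 with the drug (alone, with TSA and with PJ-34/TSA), against 130.1, 77.3 and 44.0 without it. The difference was −4.17 (SE 0.27, 95% interval −4.74 to −3.60, adjusted p = 2.22e-07), while a dim second probe set had 0.00 (adjusted p = 1). CDKN2A, the gene of p16, which blocks the cell cycle, and of ARF, which stabilizes p53, read 5469, 7006, 5629 and 6285 with 5-aza-dC in HCT116, against 5214, 6048, 6568 and 5595 without it. RKO had 1427, 1776 and 1318 with the drug, against 47.9, 268 and 49.1 without it. HCT116 did not move beyond the spread of its arrays, and the CDKN2A difference was −4.04 (SE 0.50, adjusted p = 0.000508), a call that ended without a filter and without a variance trend. A second probe set of CDKN2A gave −2.84 (adjusted p = 0.00184) and a further one, dim in both lines, −0.44 (adjusted p = 0.895).

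MAGEB2 and MAGEA6 encode cancer-testis antigens, and GTSF1 belongs in mice to the piRNA pathway that silences transposons in germ cells. MAGEB2 read 20497, 22999.5, 17917 and 21310.2 with 5-aza-dC in HCT116, against 13829, 14573, 22429 and 19294 without it, and RKO had 3181, 1147 and 1008 with the drug, against 113, 74.7 and 101 without it. Its difference was −3.77 (SE 0.27, adjusted p = 4.1e-07). GTSF1 read 25853, 35656, 31158 and 33729 with 5-aza-dC in HCT116, against 29124, 30852, 33850.1 and 32511 without it, and RKO had 581, 403 and 397 with the drug, against 118, 18.9 and 15.2 without it. RKO with 5-aza-dC thus stayed far below HCT116, and the difference was −2.77 (SE 0.19, adjusted p = 2.36e-07). MAGEA6 had geometric means of 19794 with and 13429.7 without the drug in HCT116, against 321 and 56.3 in RKO (difference −1.95, SE 0.24, adjusted p = 0.000493). MAGE probe sets can pick up RNA of related copies, so the MAGEA6 value can include other MAGEA genes.

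ZNF274, LGALS3BP and 2 p53 target genes, GDF15 and PLK2, completed the calls of this class that passed in all 14 fits without 1 array among the genes chosen for report. ZNF274 is a zinc finger repressor that binds the ends of other zinc finger genes. It had geometric means of 1566 with and 1306 without 5-aza-dC in HCT116, against 749.6 and 58.2 in RKO, and a difference of −3.43 (SE 0.30, adjusted p = 5.79e-06). A second ZNF274 probe set had −0.36 (adjusted p = 0.878). LGALS3BP, which encodes a secreted galectin-binding glycoprotein, had 15150.5 with and 13313 without the drug in HCT116, against 834 and 109 in RKO (difference −2.75, SE 0.23, adjusted p = 4.15e-06). GDF15, a secreted growth factor of the TGF-beta family, read 28459, 27669, 21247 and 27625 with 5-aza-dC in HCT116, against 28648, 31971, 16323 and 21141 without it. RKO had 4514, 9087 and 9278 with the drug, against 799, 1654 and 2848 without it, and the difference was −2.08 (SE 0.23, adjusted p = 0.000183). The GDF15 and MAGEA6 calls ended without a variance trend, and 2 dim GDF15 probe sets had −0.87 and −0.56 (adjusted p = 0.747 and 0.83). PLK2, a polo-like kinase gene, rose in both lines, by 0.59 in HCT116 (adjusted p = 0.0438) and by 2.46 in RKO (adjusted p = 1.89e-08), and the lines differed by −1.87 (SE 0.21, adjusted p = 0.000215).

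Among the less stable calls of this class, the tight junction gene CLDN7 had geometric means of 6801 with and 8173 without 5-aza-dC in HCT116, against 291 and 59.3 in RKO (difference −2.56, SE 0.40, adjusted p = 0.00651). GPAT2, an acyltransferase gene, had 4124 and 3449 in HCT116, against 301 and 50 in RKO (difference −2.33, SE 0.36, adjusted p = 0.00588). Of the fits without 1 array, both calls ended in that without the RKO array of 5-aza-dC, where each had an adjusted p of 0.0504. They also ended with a floor of 100, without a filter, without a variance trend and with all 16 arrays. FAS, the death receptor gene, had 2921 and 3126 in HCT116, against 6719.6 and 3606 in RKO (difference −0.996, SE 0.20, adjusted p = 0.0445), and ended in 10 fits (up to 0.214). MAL2, a membrane traffic gene, had −1.32 (adjusted p = 0.0231) and ended in 7 (up to 0.103). CYP3A4, a drug-metabolizing cytochrome, was intermediate in HCT116 (−2.90, adjusted p = 0.0342) and ended in all 14 (0.053 to 0.132). Its 3 other probe sets had −1.21, −0.99 and 0.26 (adjusted p 0.681 to 0.956), and the 4 other FAS probe sets −0.41 to −0.84 (0.115 to 0.925). With all 16 arrays under their labels, 3 probe sets were called with a higher effect in RKO, and each of the named genes of that direction except STK24 lost its call. In the omitted arrays LOX read 95.6 under the label PJ-34/5-aza-dC and 5981 under the label PJ-34, MAGEB2 read 95.7 and 6122, and TPM2 read 193 and 2276.

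In a few genes the larger effect was a fall in HCT116. Among them, STK24 had −1.96 in HCT116 and 1.31 in RKO, and ACAN had −1.88 and 1.25. The RKO rises did not pass the test but added to the differences. STK24, a protein kinase gene, had −3.27 (SE 0.60, adjusted p = 0.0228) at a probe set that read 28.1 to 65.7 with and 164 to 309 without 5-aza-dC in HCT116, against 117 to 198 with and 29.3 to 117 without it in RKO. The signals were low, and the 2 bright STK24 probe sets had 0.24 and 0.16 (adjusted p = 0.670 and 0.759). ACAN, the gene of the cartilage proteoglycan aggrecan, had −3.13 (SE 0.59, adjusted p = 0.0281) at 1 of 4 probe sets, and the other 3 had −0.54, 0.52 and 0.01 with adjusted p of at least 0.883. Without 1 array, the STK24 call ended in 10 fits (up to 0.0944) and the ACAN call in 12 (up to 0.124).

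**Figure D4:**
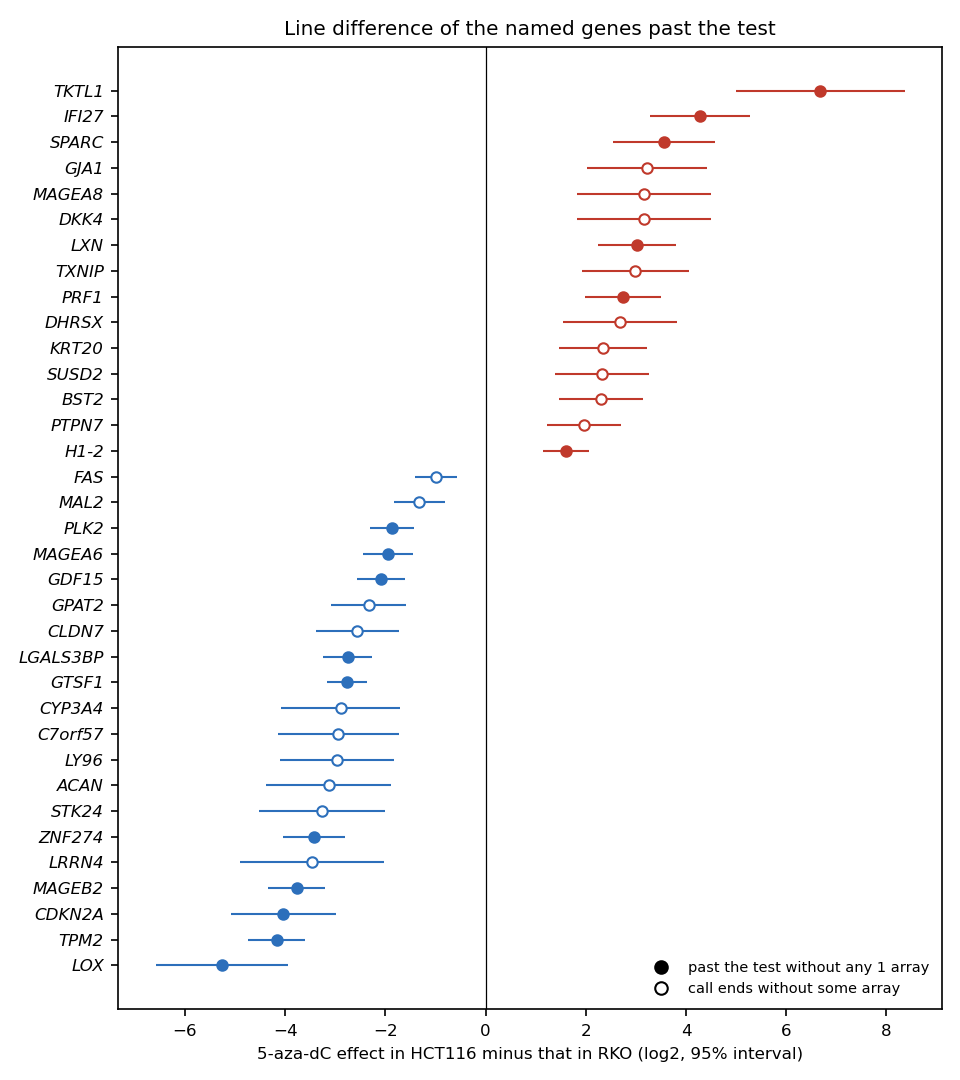
Line difference of the 35 named genes past the test (x axis, effect in HCT116 minus that in RKO, log2, with 95% intervals), red where higher in HCT116 and blue where higher in RKO. Filled points are the 16 genes that passed in all 14 fits without 1 array, and open points those whose call ended in at least 1.

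Seen from each line, most responses were not called different. 5-aza-dC raised 351 probe sets in HCT116 (0.797% of those tested) and lowered 76 (0.173%), and it raised 237 in RKO (0.538%) and lowered 41 (0.0932%). Of the 351, 32 differed between the lines, and of the 237, 52 did. For 210 of the 351 the unadjusted interval of the line difference excluded 0. The choice of the 351 by their effect in HCT116 favours such a difference. A response without a call was thus not shown to be shared by the lines. The median effect of the 351 was 1.47 in HCT116, where they were chosen, and 0.30 in RKO, where 296 were above 0 and 58 passed the test. The 237 had a median of 1.35 in RKO and 0.25 in HCT116, where 195 were above 0. The 58 probe sets raised in both lines are 16.5% of the HCT116 set and 24.5% of the RKO set. Of the 351, 208 were active in RKO without 5-aza-dC, and 21 of these rose there. A further 117 were low in RKO, and 30 of these rose. The 117 had medians of 119 with and 57.1 without the drug in RKO. Of the 237, 190 were active in HCT116, with 30 raised there, and 33 were low in HCT116, with 21 raised there. No probe set lowered by 5-aza-dC in 1 line passed the test as lowered in the other. Of the 76 lowered in HCT116, 51 were below 0 in RKO, and of the 41 lowered in RKO, 27 were below 0 in HCT116. With so few falls in each line, the lack of shared calls does not show that falls were particular to a line.

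Genes raised in both lines included cancer-testis antigens. Of the 58 probe sets, 30 have a single symbol (27 genes), 24 have several and 4 have none. The largest responses were 6 probe sets that rose by 6.02 to 6.81 in HCT116 and by 6.77 to 7.50 in RKO, of which 4 match several genes and are not named. VIM, the intermediate filament gene vimentin, read 9208, 11935, 4591 and 3010.1 with 5-aza-dC in HCT116, against 826, 725, 959 and 722 without it, and RKO had 26632, 40710.5 and 38113 with the drug, against 3556, 3149 and 2653 without it. It rose by 2.96 in HCT116 and by 3.48 in RKO, and the difference of −0.52 had a 95% interval of −1.29 to 0.25 (adjusted p = 0.727), while a second VIM probe set had −1.93 (adjusted p = 0.484). CTAG2 rose by 3.21 and 3.17 (difference 0.04, interval −1.76 to 1.85) and SSX1 by 3.32 and 2.68 (0.64, interval −0.43 to 1.72), the first value of each pair being HCT116. The germ cell gene GCNA had 0.96 (interval −0.34 to 2.26), SSX3 −0.74 (−2.23 to 0.75, with 0.87 and 0.12 at its other probe sets), PAGE1 −0.13 (−1.40 to 1.14), HCLS1, a signalling gene of blood cells, 0.10 (−1.54 to 1.74) and CPED1 −1.42 (−2.92 to 0.08). The intervals of CTAG2, PAGE1 and HCLS1 allow line differences of more than 2-fold either way. Those of the other genes allow them in 1 direction, so equal responses were not shown. IFITM1 and TUBB6, named after their values were seen, were with PLK2 and a probe set of no single gene the 4 of the 58 that differed between the lines.

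Gene lists were described with the brightest probe set of each gene, beside all 17191 genes tested, of which 0.14% had a higher effect in HCT116 and 0.262% in RKO and whose median effects were 0.02 in HCT116 and 0.05 in RKO. By the same probe sets 5-aza-dC raised 218 of these genes in HCT116 (1.27%) and 146 in RKO (0.849%). Of the 20 cancer-testis antigen genes tested, 10 rose in HCT116 and 8 in RKO, with median effects of 1.75 and 1.43 and a median line difference of 0.14. MAGEA8 had the higher effect in HCT116 and MAGEB2 and MAGEA6 in RKO. Of 39 interferon-stimulated genes, IFI27 and BST2 had a higher effect in HCT116, and LGALS3BP, HERC5 and IFITM1 in RKO, with medians of 0.21 in HCT116 and 0.32 in RKO. HERC5 was also named after its values were seen. So the members of this list that differed went in both directions.

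Of 26 p53 targets tested, 1 rose in HCT116 and 10 rose in RKO, with medians of 0.16 and 0.41. GDF15, PLK2 and FAS had a higher effect in RKO and none had a higher effect in HCT116. The other 7 that passed in RKO rose by 0.79 (ZMAT3 and DDB2), 0.80 (SESN1), 0.91 (TIGAR), 0.93 (TP53I3), 0.96 (RRM2B) and 1.40 (TP53INP1), and their line differences had adjusted p of 0.211 to 0.715. Among 18 HLA class I presentation genes, none passed in HCT116 and 4 in RKO (HLA-B, HLA-G, HLA-F and TAP1), with line differences of −0.42 to −0.69 that missed the threshold (adjusted p 0.125 to 0.482). For these genes the lines were therefore not shown to differ. Of 37 DNA replication and mitosis genes, none differed between the lines (limma, 19 at an unadjusted p under 0.05), with medians of 0.01 in HCT116 and −0.33 in RKO.

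Other lists had calls of a few genes. Of 36 genes methylated in colorectal cancer, SPARC was higher in HCT116 and CDKN2A in RKO, and of 31 mesenchyme and matrix genes SPARC and LOX. UCHL1, a ubiquitin hydrolase gene, had 2.77 (adjusted p = 0.278) and COL6A3, a collagen gene, 3.10 (adjusted p = 0.0900), neither past the test. Of 27 epithelial junction and keratin genes, KRT20 was higher in HCT116 and CLDN7 and MAL2 in RKO, where 17 of the 27 were low without 5-aza-dC. No gene was called among 17 germline and meiosis genes, 29 integrated stress response and amino acid genes, 18 imprinted, 27 HOX, 14 protocadherin beta, 8 metallothionein and 6 endothelial genes. GTSF1 and GCNA were not on the germline list, and GTSF1 was called with a higher effect in RKO. Blood-lineage genes had PRF1 alone called of 18 tested, while 6 rose in HCT116 and 1 in RKO. Over all 19 on the array, the summed signal was 14264 to 33635 with and 3043 to 3688 without 5-aza-dC in HCT116, against 11054 to 14464 with and 9669 to 12842 without it in RKO. Without PRF1 and LCP1, the brightest members in HCT116 and RKO, the sum of the other 17 was 3005 to 6232 with and 1318 to 1946 without the drug in HCT116, against 2761 to 3649 with and 1683 to 1844 without it in RKO. A group mean of at least 250 was read for 7 of the 19 with and 1 without 5-aza-dC in HCT116, against 4 with and 2 without it in RKO. In HCT116, SRGN had 529 with and 50 without the drug, LAPTM5 532 and 124, CORO1A 403 and 108, and TYROBP 276 and 64.9, while PTPRC and SPI1 read under 100 in every group mean. Whether other cells took part in these values was not tested.

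**Figure D5:**
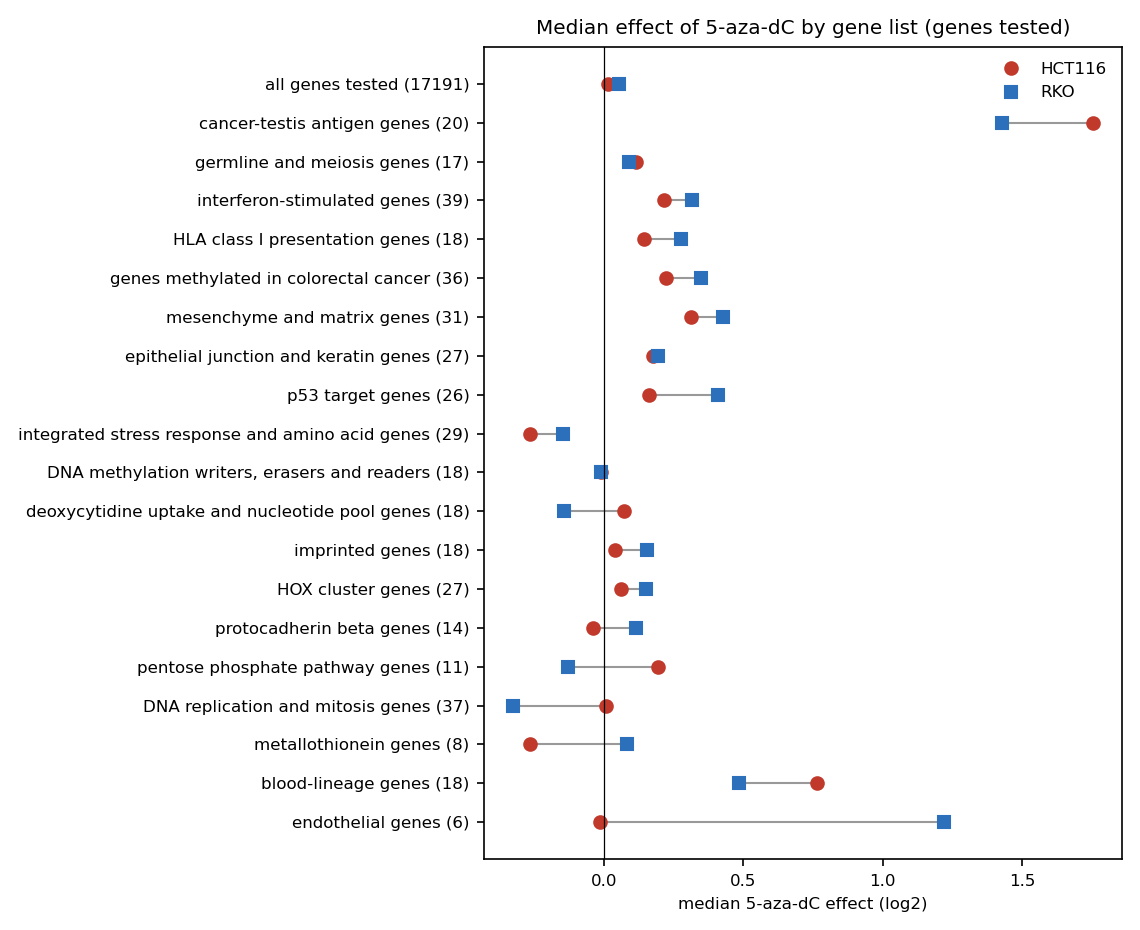
Median 5-aza-dC effect (x axis, log2) over the genes tested of each list (numbers in brackets), in HCT116 (red circles) and RKO (blue squares). Cancer-testis antigen genes have medians of 1.75 and 1.43, and the p53 targets 0.16 in HCT116 and 0.41 in RKO.

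Among genes that act on the drug itself, none passed the test of the line difference. DNMT1, the maintenance methyltransferase that the drug traps, had geometric means of 9709 with and 9781 without 5-aza-dC in HCT116, against 10159 and 12272 in RKO, a difference of 0.26 (SE 0.13, interval −0.02 to 0.54, adjusted p = 0.604). DNMT3B had −0.25 (SE 0.24, adjusted p = 0.817) and DNMT3A, at a dim probe set, −0.49 (SE 0.92, adjusted p = 0.915). DCK, the kinase that activates the drug, had 3512 and 4181 in HCT116, against 3441 and 4390.5 in RKO (difference 0.10, SE 0.17, adjusted p = 0.90). None of 18 DNA methylation writers, erasers and readers and none of 18 genes of deoxycytidine uptake and the nucleotide pool passed limma's test, where 2 and 4 had an unadjusted p under 0.05. Among them, RRM2 and RRM1, subunits of ribonucleotide reductase, had 0.62 (SE 0.14, adjusted p = 0.0962) and 0.42 (SE 0.14, adjusted p = 0.367), and UHRF1, which guides DNMT1 to DNA, had 0.48 (SE 0.14, adjusted p = 0.312). Of the genes with a known chromosome, 577 of 17165 tested lie on the X chromosome (3.36%), against 3 of 26 with a higher effect in HCT116 and 2 of 52 with a higher effect in RKO. The 3 were TKTL1, MAGEA8 and DHRSX, and the 2 were MAGEB2 and MAGEA6. Among all genes that 5-aza-dC raised at any probe set, 18 of 249 in HCT116 (7.2%) and 14 of 159 in RKO (8.8%) lie on the X chromosome.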

How the data were processed

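RNA of HCT116 and RKO cells was measured on 16 one-colour arrays, 1 per line and treatment. The authors deposited linear signal intensities from GCOS, whose version the sources used here do not state, scaled to the same trimmed mean on every array. Detection calls were not used. GEO's platform annotation gave a single symbol to 41097 of 54675 probe sets, several to 1801 and none to 11777.

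From these values, a floor of 50 was set and values were put on the log2 scale. Probe sets with at least 100 in at least 3 of the 14 arrays were tested with limma 3.58.1 (R 4.3.3, lmFit and eBayes with a variance trend), in a model with the line and, per line, 5-aza-dC and TSA effects (8 residual degrees of freedom). PJ-34 was no term, so arrays with and without it served as repeats. P-values were adjusted by Benjamini-Hochberg over all 44013 tested. The script was tested on simulated data. The number of arrays limits the precision. The groups came from the labels, but the 2 RKO arrays were left out after their signals had been seen.

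Named genes were, for each direction, the 15 with the largest difference. These passed the test, had 1 sign in the 3 shared treatments and a geometric mean of at least 200 in the highest group. Up to 3 genes per gene list were added by p and had only to pass the test. Up to 8 genes raised in both lines were added, which passed the test of the rise in each line. The methyltransferase genes, DCK, TKTL1 and SPARC were named in any case. The probe set was that of smallest p for each gene. For genes named only as raised in both lines, it was the one whose smaller rise was largest. The comparison, the members and the 19 lists were chosen with earlier results of these data known. Alternatives were floors of 20 and 100, no filter or a filter of 4 arrays, quantile normalization, a PJ-34 term, a 5-aza-dC by TSA term, all 16 arrays, the 12 arrays of shared treatments, no variance trend, and each array left out in turn.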

Additional observations from a re-analysis of the deposited data

Results flagged for a closer look

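The difference between the lines was tested directly, and 97 probe sets passed. Among the named genes, the 5-aza-dC effect was higher in HCT116 by 6.68 for TKTL1, 4.28 for IFI27, 3.57 for SPARC, 3.22 for GJA1, 3.16 for MAGEA8, 3.16 for DKK4, 3.03 for LXN, 2.99 for TXNIP, 2.74 for PRF1, 2.69 for DHRSX, 2.34 for KRT20, 2.33 for SUSD2, 2.31 for BST2, 1.96 for PTPN7 and 1.61 for H1-2 on the log2 scale. It was higher in RKO, as HCT116 minus RKO, with −5.26 for LOX, −4.17 for TPM2, −4.04 for CDKN2A, −3.77 for MAGEB2, −3.47 for LRRN4, −3.43 for ZNF274, −3.27 for STK24, −3.13 for ACAN, −2.96 for LY96, −2.94 for C7orf57, −2.90 for CYP3A4, −2.77 for GTSF1, −2.75 for LGALS3BP, −2.56 for CLDN7, −2.33 for GPAT2, −2.08 for GDF15, −1.95 for MAGEA6, −1.87 for PLK2, −1.32 for MAL2 and −0.996 for FAS.

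A single array stood apart from the other 3 of its group in 7 of 91 groups examined, where chance gives about 1 in 20. HCT116 groups alone were examined, with 4 arrays each, since groups of 3 as in RKO are too small. With 5-aza-dC these were the array of 5-aza-dC alone for TPM2 (6595) and C7orf57 (83.3), PJ-34/5-aza-dC for MAGEA6 (20781) and 5-aza-dC/TSA for GDF15 (21247). Without 5-aza-dC they were PJ-34 for TKTL1 (116), PJ-34/TSA for LXN (69.9) and TSA for PRF1 (1793). For TKTL1, LXN and C7orf57 the other arrays of the group read under the floor and were set to it. Any single array above the floor then stands apart, so the rate given for chance does not apply to these groups. In the 2 RKO arrays outside the comparison, 220 of 237 probe sets raised by 5-aza-dC read higher under the label PJ-34 than under the label PJ-34/5-aza-dC.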

How the results depend on the processing

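Line differences numbered 97, with 36 higher in HCT116 and 61 higher in RKO, the 5-aza-dC effect in HCT116 had 427 calls and the 5-aza-dC effect in RKO had 278. Without a filter on low signals these were 31, 7 and 24, with 239 and 175. Without a variance trend they were 22, 6 and 16, with 176 and 104. On the 12 arrays of shared treatments they were 52, 21 and 31, with 185 in HCT116. With all 16 arrays they were 35, of which 3 were higher in RKO, and the RKO effect had 0 calls (limma, 2097 at an unadjusted p under 0.05). Of the 97, 26 remained called without a filter, 16 without a trend, 51 on the 12 arrays and 27 with all 16. The causes were not tested.

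With 1 array left out, the counts ran between 41 and 102 in all, 11 and 46 higher in HCT116, 25 and 60 higher in RKO, 202 and 794 for the 5-aza-dC effect in HCT116 and 115 and 414 for the 5-aza-dC effect in RKO. The total moved by over 1.5 times without the RKO array of control (47), 5-aza-dC (41), TSA (43) or PJ-34/5-aza-dC/TSA (48), and without the HCT116 array of control (43), PJ-34 (48), 5-aza-dC (57) or PJ-34/TSA (63). Other changes were floors of 20 and 100, a filter of 4 arrays, quantile normalization, a PJ-34 term and a 5-aza-dC by TSA term. With each, all these counts stayed within 1.5 times. Of the line differences called without these changes, 80 remained with a floor of 20 and 67 with a floor of 100. The filter kept 88, quantile normalization 79, the PJ-34 term 75 and the 5-aza-dC by TSA term 79. A floor of 20 ended the calls of GJA1, DKK4, SUSD2, DHRSX, LRRN4, LY96, C7orf57, CYP3A4, STK24, ACAN and FAS. A floor of 100 ended those of MAGEA8, TXNIP, DHRSX, PTPN7, STK24, ACAN, CLDN7, GPAT2, MAL2 and FAS. All 836 refitted values of the 35 named genes past the test kept their direction. Of these genes, 16 passed in all 14 fits without 1 array and SPARC and LXN also in the other 10 alternatives. No paired analysis by replicate number was possible because each group has a single one, and a block for the accompanying drugs was not fitted. Signals near the floor of 50 limit what can be seen in low genes.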
